A study of Arabidopsis thaliana with 12 samples.

Results

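HD-Zip class I genes code for plant transcription factors in which a homeodomain, the DNA-contacting fold of homeobox proteins, is followed by a leucine zipper through which pairs of the proteins join. Their levels in drought-stressed Arabidopsis leaves are described here for a list of 10 genes picked by locus code, HB-7, HB-12, HB5, HB6, HB1, HB16, HB13, HB23, HB20 and HB3. Of these 10, 9 have a probe set among the 21461 analysed. HB1 (AT3G01470) was not analysed here. The list was written by locus code with earlier results of these data known, and the rule itself uses no measured value.

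In Arabidopsis, HD-Zip class I proteins bind a short palindromic DNA site as pairs and connect water status, light and abscisic acid (ABA), the drought hormone, to leaf growth. ABA is bound by PYR/PYL receptors, which then inhibit the clade A PP2C phosphatases that otherwise hold the pathway off. HB-7 and HB-12 are a closely related pair known for induction by ABA and water deficit, and they have been placed in the feedback on those phosphatases and receptors, HB6 binds the phosphatase ABI1 and dampens ABA responses, and HB5 promotes ABA responses in seedlings.

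RNA came from young leaves of wild-type Arabidopsis thaliana, ecotype Columbia, grown at 22 °C with 10 h of light per day and measured on 12 Affymetrix ATH1 arrays in 6 groups of 2. The groups were a moderate drought on day 1 and on day 10, with water withheld from 30 days after sowing and soil then held at 30% of field capacity, a progressive drought taken on the first day of wilting, with water withheld from 35 days after sowing, and a well-watered control for each of these 3 samplings. No group carried a transgene or an added hormone in the labels, and 5 plants were pooled for each array, so that the number of pools limits the precision of every value. Since young leaves were taken whole, fewer cells of a type and less RNA per cell cannot be told apart.

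Values are log2 expression on the scale of RMA, a method that corrects background, brings arrays to a common distribution and combines the probes of each gene. The 3 samplings had been brought to separate distributions, so levels are compared only within a sampling. Replicate arrays correlated across probe sets at 0.989 to 0.997 in the moderate drought and its controls, and at 0.974 and 0.964 in the progressive control and drought. Mesophyll and flower genes went with the leaf label: the 3 measured mesophyll genes (of 5 listed) were above the array median on all 12 arrays, and 4 of 4 flower genes were below it on all 12. Shoot apex and root genes were mixed, as given with the cell type markers below. Effects are drought minus own control with their standard error (SE) from limma, n = 2 arrays per group, and a gene is said to have risen or fallen at a Benjamini-Hochberg adjusted p under 0.05 over all 21461 probe sets.

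HB-7 and HB-12 rose strongly in progressive drought, by 5.74 ± 0.25 and 6.19 ± 0.31 log2 units, while HB6 rose by 0.94 ± 0.16 and HB5 and HB13 fell by 1.30 ± 0.39 and 0.71 ± 0.18. In limma, 5 of the 9 genes were called in that comparison, against 27% of all probe sets, 3 as rises (12.5% of all probe sets) and 2 as falls (14.5%). The 2 falls did not pass with the 4 progressive arrays alone (limma adjusted p = 0.293 for HB5 and 0.204 for HB13). On day 1 and on day 10 of the moderate drought limma called 0 of the 9, where 0.0186% and 0.107% of all probe sets were called. At an unadjusted p under 0.05 there were 2 of the 9 on day 1 and 4 of the 9 on day 10, against 8.69% and 10.4% of all probe sets.

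**Figure D1:**
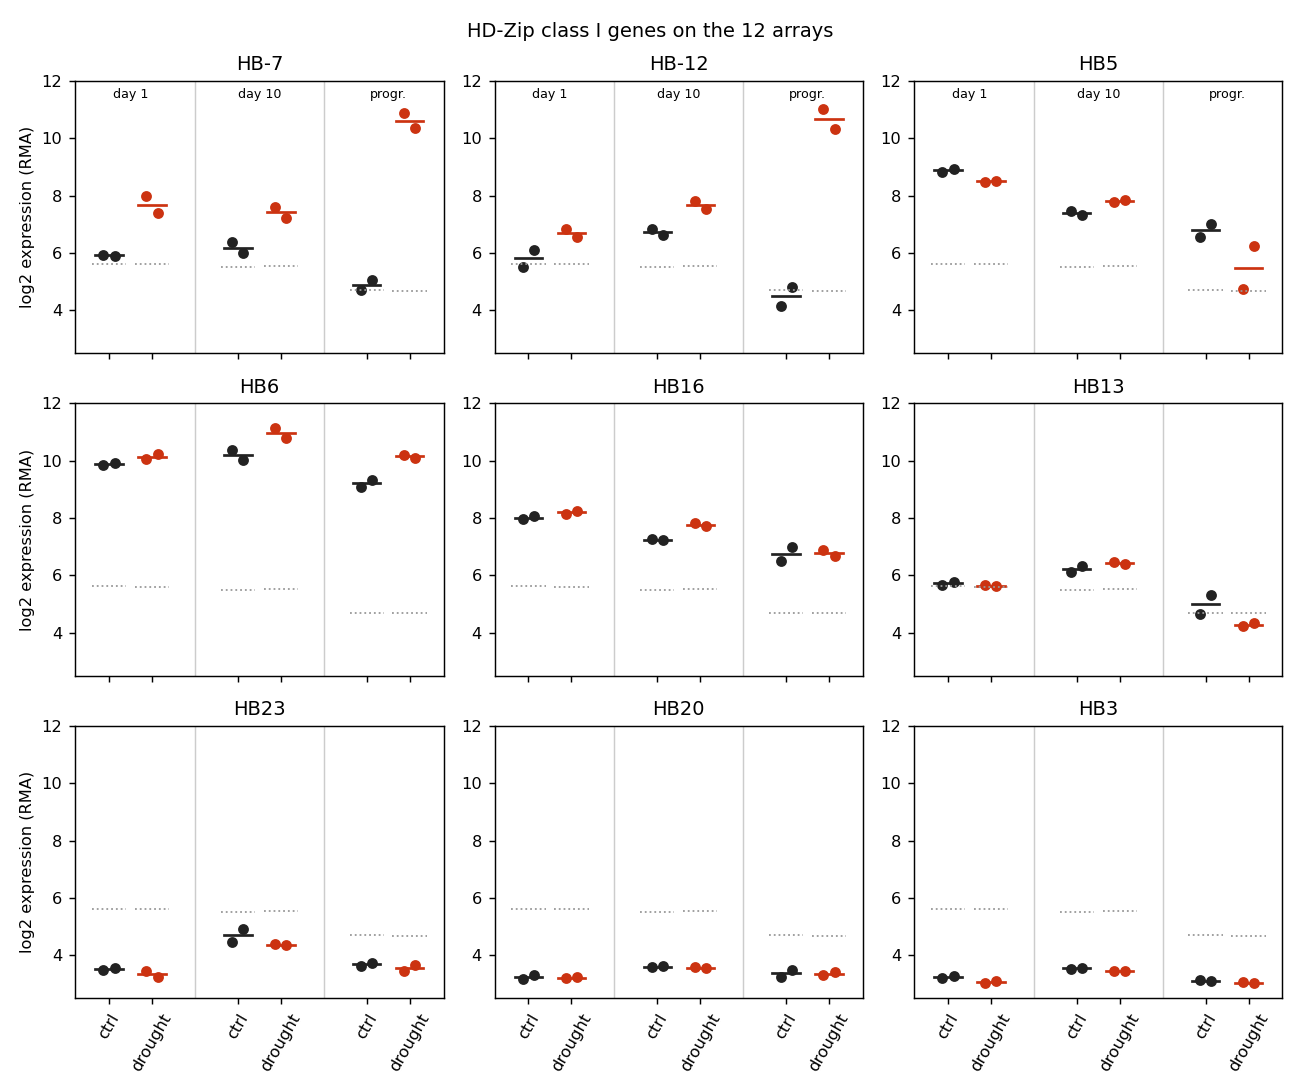
Log2 expression (RMA) of the 9 genes on each of the 12 arrays, controls in black and drought in red. Points are arrays, bars are means of 2 arrays and dotted lines are the array medians. HB-7 and HB-12 reach 10.32 or more on both progressive drought arrays, and HB23, HB20 and HB3 lie below the array median throughout. Heights are comparable within a sampling only.

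HB-7 (probe set AT2G46680_at, named by its locus code) is a growth regulator of water-limited plants. On day 1 its values were 5.94 and 5.90 in the controls and 7.97 and 7.39 in drought. On day 10 they were 6.38 and 5.99 in the controls and 7.61 and 7.23 in drought. Both drought arrays were above both controls at each time.

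In progressive drought the HB-7 controls were at 4.71 and 5.04, close to the array median, and the wilting leaves were at 10.88 and 10.36. The drought arrays stood far above the controls and the replicate gap in either group was small beside that distance. The difference was 53.6-fold (95% interval 36.0 to 79.6), with an adjusted p of 3.86e-06 in limma, and it was the 23rd largest rise of the 21461 probe sets. All 8 other settings of the fit called this rise, at limma adjusted p up to 0.0174. With controls this close to the array median, the size is approximate.

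The HB-7 effect was 1.77 ± 0.25 on day 1, or 3.40-fold (95% interval 2.29 to 5.06), and 1.24 ± 0.25 on day 10, or 2.35-fold (1.58 to 3.50). Neither passed with the spread estimated from all 12 arrays (limma adjusted p = 0.0733 and 0.127). In size the day 1 value was 22nd and the day 10 value 53rd among the differences above 0. The day 1 value passed in limma with the 4 arrays of that sampling alone (adjusted p = 0.0244), with array weights (0.00935), with a trended and robust prior (0.0338) and without the 4 progressive arrays (0.0183), and the day 10 value passed with array weights (0.049) and without the progressive arrays (0.0217). These were 4 of the 8 other settings of the fit for day 1 and 2 of the 8 for day 10. In the rest neither value passed, with limma adjusted p up to 0.417 and 0.311. The fit without the progressive arrays was chosen after seeing the data. Over the 12 fits without an array the effect was 1.48 to 2.05 on day 1 and 1.04 to 1.43 on day 10.

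HB-12 (AT3G61890_at), its closest relative, is likewise induced by ABA and limits stem growth. On day 1 it measured 5.51 and 6.10 in the controls against 6.85 and 6.54 in drought, and on day 10 it measured 6.83 and 6.62 against 7.81 and 7.52. The arrays of the 2 groups did not overlap at either time. The progressive controls were at 4.15 and 4.82 and the drought arrays at 11.04 and 10.32, again with no overlap.

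The progressive rise of HB-12 was 73.2-fold (95% interval 45.2 to 119.0) with a limma adjusted p of 5.80e-06, and it was the 17th largest of all probe sets. HB-12 was called there in all 8 other settings of the fit, at limma adjusted p up to 0.0196. Its control mean of 4.49 was below the array median, so the size is approximate too. Its effects on day 1 (0.89 ± 0.31) and day 10 (0.94 ± 0.31) did not pass, at limma adjusted p of 0.45 and 0.305. The day 10 value passed in 1 of the 8 other settings of the fit, the one without the progressive arrays (limma adjusted p = 0.046). That setting was chosen after seeing the data.

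On day 1 the HB-7 effect was 1.77 and that of HB-12 0.89, while in progressive drought the order was the other way round, 5.74 against 6.19. The 95% intervals overlapped in both comparisons (1.19 to 2.34 against 0.19 to 1.58, and 5.17 to 6.32 against 5.50 to 6.89). Whether the effects differ between the genes was not tested.

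**Figure D2:**
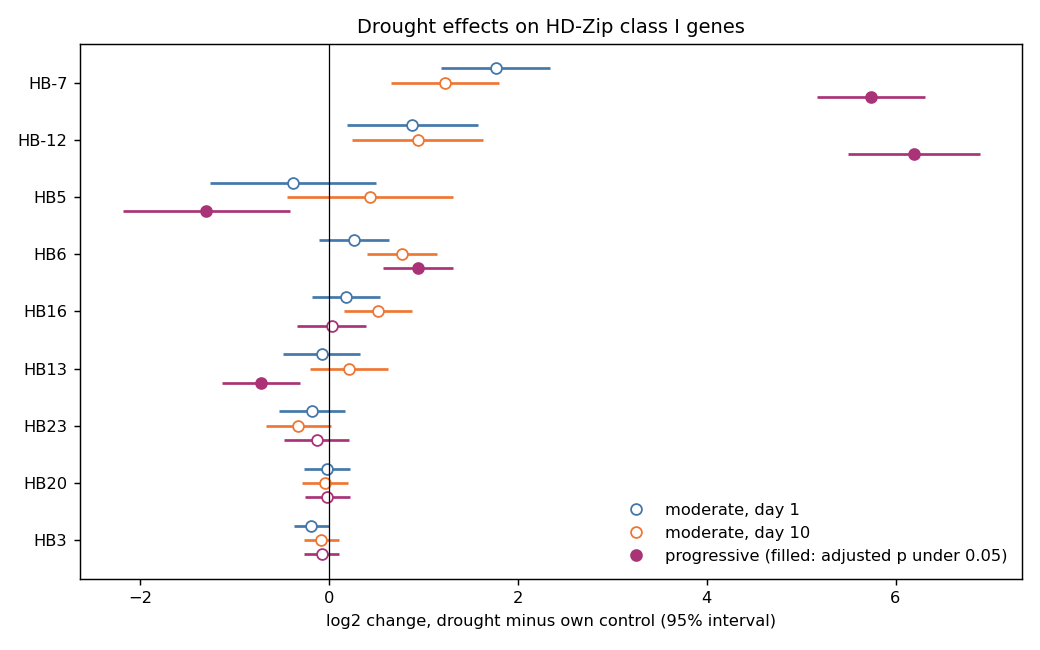
Log2 change, drought minus own control, with 95% intervals from limma for the 9 genes. Filled points passed an adjusted p of 0.05 over all probe sets. Filled points occur in progressive drought only, at 6.19 for HB-12, 5.74 for HB-7, 0.94 for HB6, −0.71 for HB13 and −1.30 for HB5.

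HB6, HB16 and HB5 belong with HB1 to another branch of the class. HB6 (AT2G22430_at), the partner of ABI1, was well above the array median on all 12 arrays, by at least 4.22 log2 units. Its progressive controls were at 9.10 and 9.34 and its drought arrays at 10.21 and 10.11, with close replicates on both sides. HB6 rose 1.92-fold there (95% interval 1.49 to 2.48, limma adjusted p = 0.00239). The 8 other settings of the fit also called it, at limma adjusted p up to 0.0423.

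Under moderate drought HB6 measured 10.37 and 10.02 in the controls of day 10 and 11.15 and 10.78 in drought. On day 1 it measured 9.85 and 9.91 in the controls and 10.06 and 10.23 in drought. All drought arrays lay above their controls, by narrow margins on day 1. The effects were 0.27 ± 0.16 on day 1 (limma adjusted p = 0.701) and 0.77 ± 0.16 on day 10 (0.129). The day 10 value passed in 1 of the 8 other settings, the one without the progressive arrays (limma adjusted p = 0.0368).

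HB16 (AT4G40060_at), the closest relative of HB6 and tied to blue-light control of leaf development, was higher in drought on day 10 without passing the test and close to its control in progressive drought. On day 10 its controls were at 7.26 and 7.24 and its drought arrays at 7.82 and 7.73, a difference of 0.52 ± 0.16 (limma adjusted p = 0.264). That difference passed in 1 of the 8 other settings, the one without the progressive arrays (limma adjusted p = 0.0278). In progressive drought its controls, at 6.49 and 7.0, enclosed the drought arrays at 6.89 and 6.66. The effect there was 0.03 (95% interval −0.33 to 0.39, limma adjusted p = 0.941), an interval that lies below the 0.58 to 1.31 of HB6, though the difference between the 2 genes was not tested. On day 1 HB16 was at 0.18 ± 0.16.

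HB5 (AT5G65310_at) went down in progressive drought, on the strength of unequal replicates. Its controls were at 6.56 and 7.01 and its drought arrays at 4.73 and 6.25, a replicate gap larger than that of any other of the 9 genes in any group. The fall of 1.30 ± 0.39 passed in limma (adjusted p = 0.0363), but not with the 4 progressive arrays alone (0.293), and it was lost in 11 of the 12 fits that left out an array. Without drought replicate 1 the effect was −0.54 and without drought replicate 2 it was −2.05 (adjusted p = 0.0609 and 6.25e-05), the only fit without an array in which it passed.

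Under moderate drought HB5 measured 8.82 and 8.94 in controls and 8.47 and 8.52 in drought on day 1, and 7.45 and 7.31 against 7.77 and 7.86 on day 10. The arrays did not overlap on either day, with drought lower on day 1 and higher on day 10. The effects were −0.38 ± 0.39 and 0.44 ± 0.39 and neither passed in limma (adjusted p = 0.866 and 0.819). These SEs pool the spread of all groups, among them progressive drought with its HB5 replicate gap of 1.51. With the arrays of each sampling alone the SE was 0.096 on day 1 and 0.104 on day 10. Neither effect passed in limma with those arrays alone (adjusted p = 0.123 and 0.211).

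HB13, HB23, HB20 and HB3 form a further branch. HB13 (AT1G69780_at), known for cold and drought tolerance when overproduced, was near the array median. In progressive drought it measured 4.66 and 5.31 in controls and 4.22 and 4.32 in drought, with no overlap and a wide gap between the controls. The fall of 0.71 ± 0.18 passed in limma (adjusted p = 0.0175), but not with the 4 arrays alone (0.204), with array weights (0.0558), without control replicate 2, where it was −0.39 (0.0635), or without drought replicate 1 (0.0656).

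On day 1 HB13 was at 5.67 and 5.77 in controls and 5.66 and 5.62 in drought, and on day 10 at 6.13 and 6.31 against 6.48 and 6.39. Its effects, −0.08 ± 0.18 and 0.22 ± 0.18, did not pass in limma (adjusted p = 0.964 and 0.797). The drought arrays were the lower ones on day 1 and the higher ones on day 10, each time by little.

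HB23 (AT1G26960_at), HB20 (AT3G01220_at) and HB3 (AT5G15150_at) lay below the array median on all 12 arrays, at 3.24 to 4.92 for HB23, 3.17 to 3.63 for HB20 and 3.01 to 3.56 for HB3. Whether they exceed background was not tested, so a small effect in them need not mean an unchanged transcript. Their effects ran from −0.32 (HB23, day 10) to −0.01 (HB20, progressive drought) over the 3 comparisons, and none passed in limma (adjusted p from 0.526 to 0.993). The 95% interval reaching furthest from 0 was that of HB23 on day 10, −0.67 to 0.03.

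Counted by array, drought and control did not overlap on day 1 for 8 of the 9 genes, 4 with drought higher and 4 with drought lower, against 26.6% and 22.9% of all probe sets. On day 10 drought was higher without overlap for 6 genes and lower for 2, against 25.7% and 18.9%, and in progressive drought 3 were higher and 3 lower, against 27.1% and 27.5%. The median effect of the 9 genes was −0.02 on day 1, 0.44 on day 10 and −0.01 in progressive drought, where the median of all probe sets was 0.01, 0.02 and 0.00.

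The next comparison asks whether a gene's drought effect differed between samplings, each against its own control. Against day 1 limma called 2 of the 9 genes (12.5% of all probe sets), and against day 10 it called 3 of the 9 (12.3%). For HB-7 the progressive effect exceeded that of day 1 by 3.98 ± 0.36 and that of day 10 by 4.51 ± 0.36 (limma adjusted p = 4.17e-04 and 2.39e-04). For HB-12 it exceeded them by 5.31 ± 0.43 and 5.25 ± 0.43 (adjusted p = 3.15e-04 and 2.61e-04). HB-12 had the 9th largest difference from day 1 above 0, and HB-7 the 40th.

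Between day 10 and day 1 limma called 0 of the 9 genes and 0% of all probe sets (at an unadjusted p under 0.05, 0 of the 9 and 6.86%). The difference was −0.53 for HB-7 (95% interval −1.34 to 0.28), 0.06 for HB-12 (−0.93 to 1.04), 0.51 for HB6 (−0.01 to 1.03) and 0.81 for HB5 (−0.43 to 2.06). These intervals leave room for a change of 1 log2 unit or more in either HB-7 or HB-12 between the days.

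HB13 had a progressive effect below that of day 10 by 0.93 ± 0.26 (limma adjusted p = 0.0473). That call was lost with the arrays of the 2 samplings alone (0.138), with array weights (0.0621), with cyclic loess (0.0618) and in 11 of the 12 fits without an array, and it held in 3 of the 8 other settings of the fit. Without progressive control replicate 2 the difference was −0.61 (0.0568), and without progressive control replicate 1 it was −1.25 (0.00245). HB6 had a progressive effect 0.68 ± 0.23 above that of day 1 (0.0954), which passed in 2 of the 8 other settings, among them cyclic loess (0.045). The HB5 difference between progressive drought and day 10 was −1.73 ± 0.55, which did not pass (0.0786) and passed with array weights (0.0324). A single array set its size, at −0.98 without progressive drought replicate 1 and −2.49 without progressive drought replicate 2, and both of these passed (0.0267 and 2.16e-04).

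**Figure D3:**
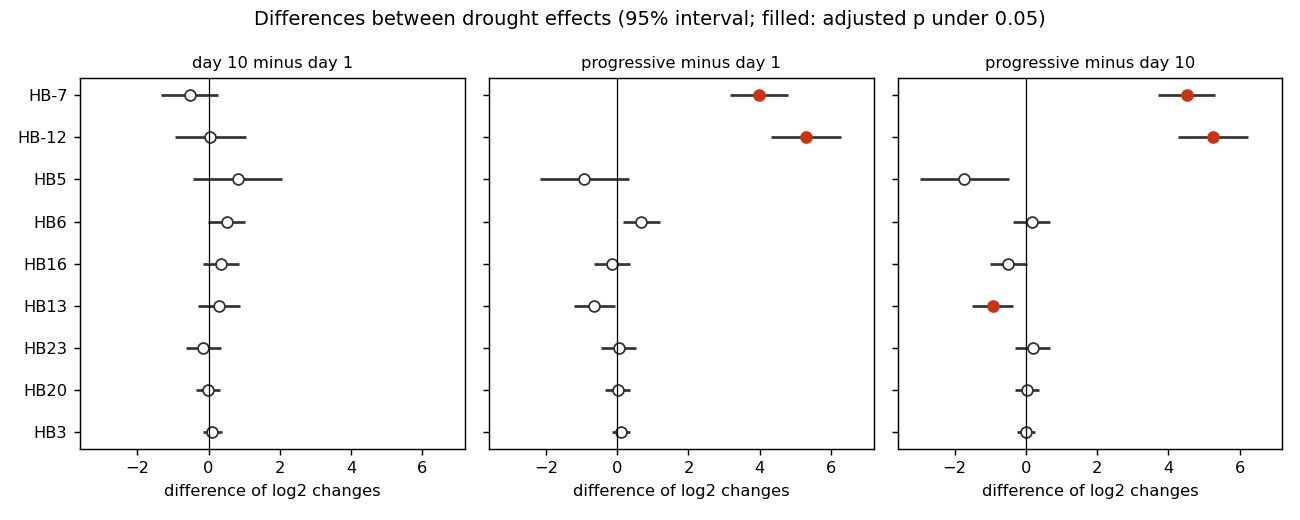
Differences between drought effects in log2 units with 95% intervals from limma, one panel per pair of samplings. Filled points passed an adjusted p of 0.05. HB-7 and HB-12 differ between progressive and moderate drought by 3.98 to 5.31, and the intervals of the 9 genes between the 2 days of moderate drought all include 0.

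Other genes of the HD-Zip family give the setting. Of the 7 further class I genes 6 were measured, among them HB21, HB40 and HB53, which act in dormant axillary buds in Arabidopsis, and limma called 0 of 6 in each of the 3 comparisons (0 of 6 at an unadjusted p under 0.05), against 27% of all probe sets in progressive drought. Their largest effect was 0.24 ± 0.16 for HB53 in progressive drought, and their group means were between 2.68 and 4.36, so the depth of signal limits what these 6 can show. In class II, whose members mediate shade responses, 2 of 10 rose and 1 fell in progressive drought, 3 of 10 in all and close to the 27% of all probe sets. HAT2 rose by 1.81 ± 0.30, HAT22 rose by 1.25 ± 0.26 and HAT1 fell by 2.13 ± 0.14 (limma adjusted p = 0.00204, 0.00659 and 1.54e-05).

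Class III genes, which set leaf polarity and vascular pattern, had 3 of 5 fall in progressive drought, against 14.5% of all probe sets, PHB by 1.04 ± 0.17, REV by 0.96 ± 0.18 and CNA by 0.47 ± 0.11 (limma adjusted p = 0.00175, 0.00336 and 0.0130). Class IV genes, which act in the epidermis, had 1 of 16 fall, a share below that 14.5%, namely PDF2 by 0.63 ± 0.16 (0.0154). On day 1 and day 10 limma called 0 genes of classes II, III and IV, and at an unadjusted p under 0.05 there were 1 of 10, 0 of 5 and 0 of 16 on day 1 and 3 of 10, 1 of 5 and 0 of 16 on day 10, against 8.69% and 10.4% of all probe sets. No called effect in these 3 classes reached the size of those of HB-7 and HB-12, a comparison of values that was not tested.

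The ABA signalling genes that HB-7, HB-12 and HB6 have been linked to were measured on the same arrays, so their effects share every control with those above. Of 9 clade A phosphatases 8 rose in progressive drought, against 12.5% of all probe sets, with a list median of 3.15. The 4 with the smallest p were HAI2 (6.56 ± 0.26), ABI2 (4.23 ± 0.18), ABI1 (3.15 ± 0.17) and HAI1 (6.41 ± 0.36), at limma adjusted p of 2.78e-06, 3.86e-06, 6.61e-06 and 8.60e-06. Of 10 measured receptors (14 listed) 4 fell and 0 rose, against 14.5% and 12.5% of all probe sets. Those that fell were PYL8 (−1.34 ± 0.09), PYL4 (−2.35 ± 0.24), PYL1 (−0.89 ± 0.17) and PYL5 (−1.28 ± 0.25), at limma adjusted p of 2.12e-05, 1.42e-04, 0.00467 and 0.00479.

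In the moderate drought limma called 0 phosphatases and 0 receptors, and at an unadjusted p under 0.05 there were 5 of 9 and 5 of 10 on day 1 and 2 of 9 and 1 of 10 on day 10, against 8.69% and 10.4% of all probe sets. The receptor share on day 10 was thus that of all probe sets. HAI2, at 1.68 ± 0.26 on day 1 and 1.70 ± 0.26 on day 10, had limma adjusted p of 0.0906 and 0.0604. PYL4 was at −1.62 ± 0.24 on day 1 (0.0838) and −0.69 ± 0.24 on day 10 (0.34). The medians were 0.71 and 0.26 for the phosphatases and −0.30 and −0.02 for the receptors on day 1 and day 10.

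**Figure D4:**
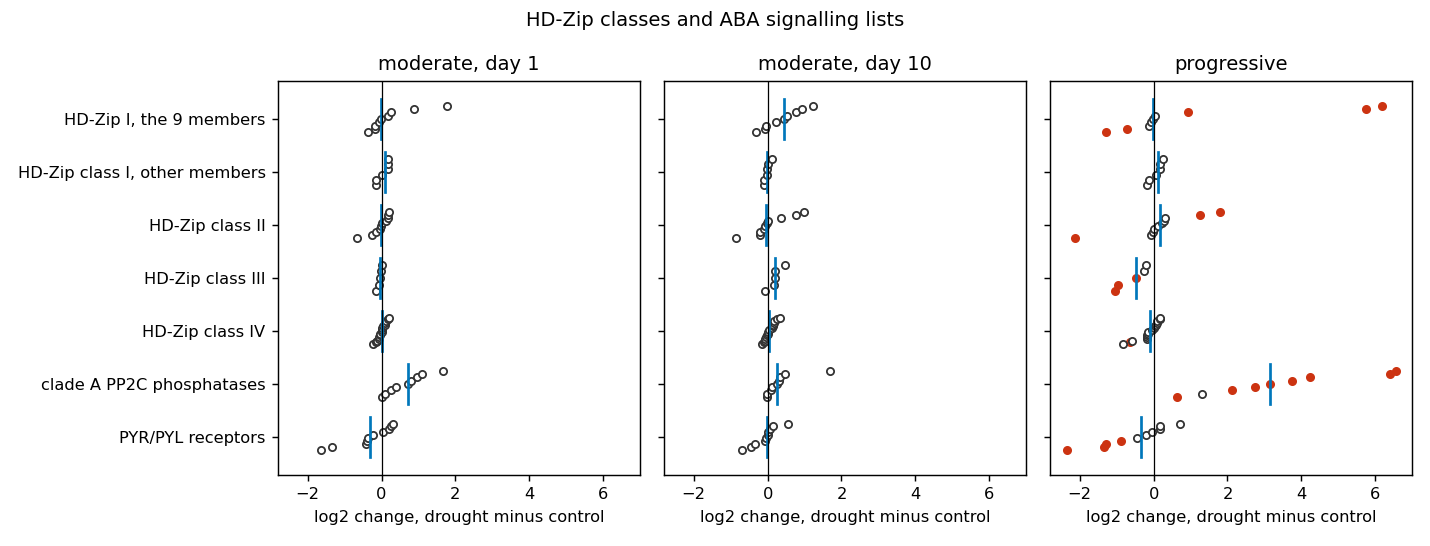
Log2 change, drought minus control, of each measured gene of the HD-Zip classes and of the ABA phosphatases and receptors, one panel per comparison. Blue bars are list medians and filled red points passed an adjusted p of 0.05. In progressive drought the phosphatase median is 3.15 and the receptor median −0.33, and the 9 listed class I genes span −1.30 to 6.19.

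Likeness of pattern was measured as Pearson's r over the 12 arrays after the mean of the 4 arrays of each sampling was subtracted, among genes with a symbol. These points share arrays, and the progressive arrays carry most of the variation, so r is a description. HB-7 and HB-12 had an r of 0.98 over the 12 arrays and 0.93 over the 8 arrays of the moderate drought. HB-12 was 16th of 8981 in likeness to HB-7, and HB-7 was 24th in likeness to HB-12.

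The 5 genes most like HB-7 were AIRP2 (r = 0.992), RAP2.1 (0.990), HAI2 (0.990), NF-YA7 (0.989) and PUB19 (0.989). AIRP2 and PUB19 code for ubiquitin ligases of ABA and drought responses and RAP2.1 for an AP2-type factor. Their progressive effects were 3.71 for AIRP2, 1.89 for RAP2.1, 6.56 for HAI2, 3.27 for NF-YA7 and 5.69 for PUB19. Over the 8 moderate arrays their r with HB-7 was 0.93 to 0.98.

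Closest to HB-12 were GLX2-5 (0.996), GCL2 (0.993), ABI1 (0.992), MGT4 (0.991) and RAP2.1 (0.990), with progressive effects of 2.55, 1.68, 3.15, 0.94 and 1.89 in that order. RAP2.1 was the gene that both lists held. The phosphatase HAI2 stood on the list of HB-7 and ABI1 on that of HB-12.

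HB6 had other neighbours, ALA2 (0.974), MEE62 (0.972), NAP (0.968), KAI2 (0.962) and OZF2 (0.958). NAP, a NAC factor of leaf senescence, had drought effects of 1.33, 2.39 and 3.71 on day 1, day 10 and in progressive drought, of which the last passed in limma (adjusted p = 0.594, 0.195 and 0.0019). HB6 and HB16 had an r of 0.94 over the 8 moderate arrays and 0.64 over all 12.

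**Figure D5:**
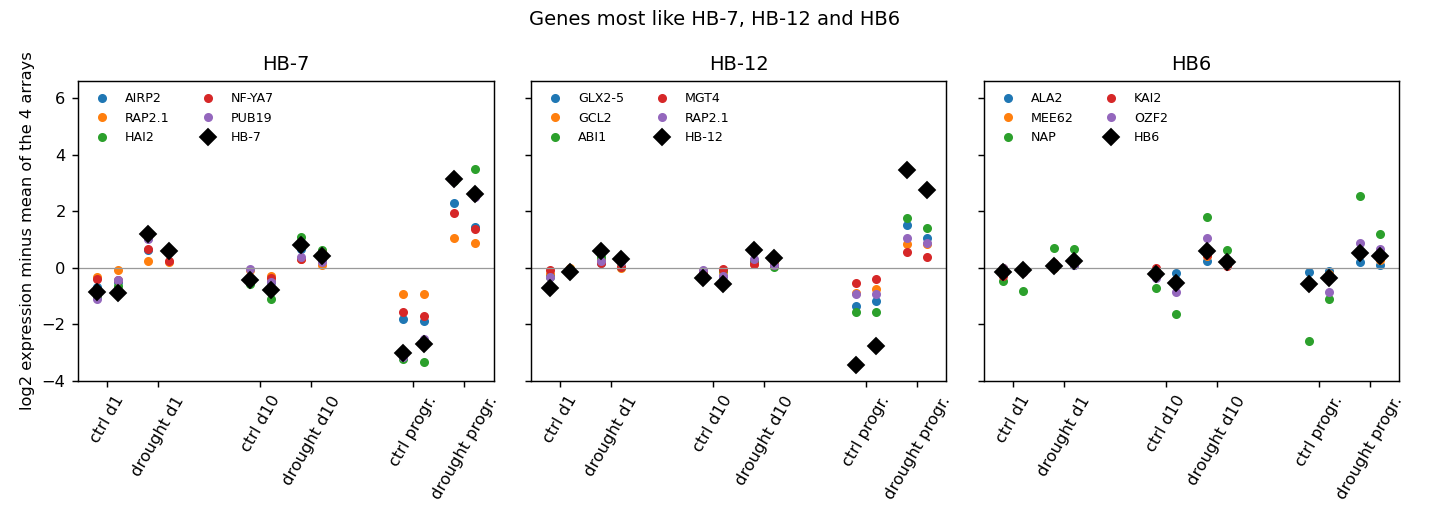
Log2 expression minus the mean of the 4 arrays of a sampling for HB-7, HB-12 and HB6 (black diamonds) and the 5 genes most like each (coloured points), on each of the 12 arrays. Each gene's drought effect is the distance between its drought and control points. Progressive points of HB-7 and HB-12 spread wider than those of most neighbours, since r does not compare sizes.

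Some markers of cell types changed in progressive drought too. The 3 measured mesophyll genes fell there, against 14.5% of all probe sets, and their mean level was 12.94 to 13.22 in controls and 11.51 to 12.06 in drought. Of 4 vascular genes 1 rose, with a mean level of 5.79 to 6.12 in controls and 6.15 to 6.65 in drought, and 1 of 3 guard cell genes fell (4.69 to 5.06 against 4.14 to 4.48). On day 1 limma called 0 of these 10 genes, yet the vascular mean was 6.30 to 6.34 in controls and 6.83 to 6.95 in drought and the guard cell mean 6.15 to 6.22 and 5.75 to 5.91. The mesophyll mean on day 1 was 13.047 to 13.109 in controls and 12.865 to 12.991 in drought. On day 10 limma again called 0 of the 10, and the mesophyll mean was 12.91 to 12.93 in controls and 12.50 to 12.63 in drought. CA1 was at −0.91 there, with RCA at −0.03 and GAPA at −0.11. The vascular mean on day 10 was lower in drought, at 5.766 to 5.845 against 5.907 to 5.978, the other way from day 1. The guard cell means overlapped on day 10. The part of these shifts in the results for HB-7, HB-12, HB6, HB5 and HB13 was not tested. SAG12, the marker of late senescence, was below the array median on all 12 arrays, as were 2 of 3 shoot apex genes and 2 of 4 root genes. The remaining shoot apex gene, STM, was above it on 8 arrays, and the root genes PHO1 and NRT2.1 on 9 and 4.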

How the data were processed

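Leaf RNA was measured on 12 ATH1 arrays. The deposited values are log2 expression made by the authors with RMA; the submitters' processing notes name RMA and affy, with no version. The spread of ranked values was 0.0502 to 0.0686 within the 4 arrays of a sampling and 0.695 over all 12, so samplings had been normalised separately. After 56 control probe sets were left out, 21461 were fitted with limma 3.58.1 in R 4.3.3 (lmFit, eBayes, 6 group means, 6 residual and 2.78 prior degrees of freedom), two-sided, Benjamini-Hochberg adjusted per contrast. With 2 against 2 arrays an exact permutation test cannot go below 0.333. The fit was tested on simulated data with effects on day 1 only and a single spread per gene for all groups. That test does not cover the progressive effects or the differences between samplings.

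The members and lists were chosen with earlier results of these data known. Named were all members, the 5 symbol-bearing genes most like HB-7, HB-12 and HB6, and up to 4 called genes per list, or 2 values where none was called. Symbols came from a RefSeq table of assembly TAIR10.1, without coordinates, since no source names the build behind the probe sets. Alternatives were the arrays compared alone, array weights, cyclic loess, a filter on dim probe sets (mean above the median in at least 1 sampling), a trended robust prior, a replicate block and leaving out each array. Chosen after seeing the data were the fit without progressive arrays, joint quantile normalization and a crossed block. Figures used matplotlib 3.10.9 in Python 3.11.15.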

Additional observations from a re-analysis of the deposited data

Results flagged for a closer look

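For 3 genes the drought effect differed between samplings by the test of the difference itself. HB-7 differed by 3.98 between progressive drought and day 1 and by 4.51 between progressive drought and day 10. HB-12 differed by 5.31 and 5.25. These 4 differences passed in every alternative fit run. HB13 differed by −0.93 between progressive drought and day 10, and passed in 1 of the 12 fits without an array. Groups of 2 arrays are too small for a test of single arrays that stand apart.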

How the results depend on the processing

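The count of the 9 genes called on day 1 moved from 0 to 1, HB-7, with the 4 arrays alone, array weights, a trended robust prior and without the progressive arrays, and was 0 to 1 over the 12 fits without an array. Those 4 settings called 0.871%, 0.769%, 0.112% and 0.666% of all probe sets on day 1. On day 10 the count moved from 0 to 1 with array weights, where 0.736% of all probe sets were called. It moved to 4 without the progressive arrays (HB-7, HB-12, HB6 and HB16), where 3.57% of all probe sets were called. In progressive drought it moved from 5 to 3 with the 4 arrays alone and was 3 to 5 without an array. The 4 progressive arrays alone gave calls for 7.34% of all probe sets. With array weights HB13 was lost in progressive drought (limma adjusted p = 0.0558), where 19.9% of all probe sets were called. Calls for HB-7, HB-12 and HB6 in progressive drought held in every fit. No called effect changed sign. Lone arrays were assumed to vary like the other groups. The filter on dim probe sets left 6 of the 9 genes. The labels give replicates by number only, and whether a shared number marks a pair was not tested. Replicate differences of drought and control had a correlation of 0.03 on day 1, 0.06 on day 10 and −0.49 in progressive drought. With the replicate block 5 of the 9 were called in progressive drought (21% of all probe sets) and 0 on both moderate days (0.00466% and 0%). Progressive minus day 1 and minus day 10 each had 2 called (6.36% and 6.69%), HB13 being lost from the last (limma adjusted p = 0.0832). With the progressive pairs crossed the counts for progressive drought and these 2 differences were 5, 3 and 2, with HB6 gained and HB13 lost. The shares of all probe sets were then 30.4%, 14.7% and 15.6%. All probe sets called in progressive drought were 5797, against 1575 with the 4 arrays alone, and on day 1 they were 4, against 187. The main fit uses a single spread per gene for all groups. Over all probe sets the replicate SD was 0.314 and 0.369 in the progressive control and drought, and 0.123 to 0.21 in the moderate groups. With the arrays of a sampling alone the SE of HB5 in progressive drought went from 0.39 to 0.58. That of HB-7 on day 1 went from 0.25 to 0.19. The cause of the changed counts was not tested.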
